A study of Mus musculus with 32 samples.

Results

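Usp9x, Usp11, Otud5, Huwe1, Cul4b and Rnf128 are 6 X-linked genes of the ubiquitin system, and they are described here across 12 groups of mouse XEN cells. They were taken by name, all 6 were listed in each of the 4 tables, and they stand among 1006 X-linked genes listed in any table. XEN cells are stem cell lines of the extraembryonic endoderm, here of the strain cross 129S1/SvImj X JF1/Ms, and sequence differences between the parents allow expression to be split between the active X (Xa) and the inactive X (Xi). On Xa all 6 genes were expressed in all 12 groups. On Xi they stayed at or near 0 in WT and in most other groups. The highest Xi values of Rnf128, Usp9x and Otud5 were in cells labelled XRR KO. Even there no member reached 10% of its own Xa plus Xi level, though Rnf128 came close at 9.90%.

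Ubiquitin is a small protein that is attached to other proteins in a chain of reactions by an activating enzyme, a conjugating enzyme and a ligase, which chooses the target. Deubiquitinases remove it again. The balance sets how long many proteins last and where they act. Among the ligases, Cul4b encodes a cullin, the scaffold of multi-subunit ligases that act on chromatin and cell cycle proteins, and mouse embryos without it fail with defects of extraembryonic tissues. Huwe1 encodes a very large ligase with a HECT domain. Rnf128, also called GRAIL, encodes a membrane-bound ligase with a RING domain, known from T cells. Among the deubiquitinases, Usp9x and Usp11 belong to the USP family, and Usp11 acts in DNA repair. Otud5 belongs to the OTU family and restrains interferon signalling. Human USP9X is known as a gene that escapes X inactivation.

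The groups were 3 samples of WT, 4 of XistpA, 2 of XRR KO (1 from each of 2 clones), 3 of XRRa KO, and 2 each of XRRb XaKO, XRRb XiKO, XRRc XaKO and XRRc XiKO. There were also 4 Rad21-degron samples with DMSO and 4 with dTAG, each from 2 clones, and 2 Ctcf-degron samples with DMSO and 2 with dTAG, both treated for 48 h. The labels do not explain XistpA, XRR or its parts a, b and c, nor the changes named XaKO and XiKO. Adding dTAG to such cells causes the protein that carries the degron tag to be degraded, and DMSO is the solvent control. Rad21 is a subunit of cohesin and Ctcf is a factor that halts cohesin on DNA. Neither is X-linked, so neither is among the genes listed. The values are of RNA while the degron acts on the protein, so how far Rad21 and Ctcf were depleted was not analysed here. The Rad21-degron labels give no duration.

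For each gene and allele a group has 1 merged FPKM, a count of fragments scaled to transcript length and to the library total. Clones and replicates were therefore pooled before deposit, no value has an SD, and no difference has a test. In bulk samples fewer expressing cells and less RNA per cell cannot be told apart. The sequencing depth is unknown. Levels are compared only within a table, because the tables were made separately. The Xi share, which is Xi as a percentage of Xa plus Xi, is unaffected where both alleles of a group are scaled alike, and it is given where Xa plus Xi was 1 FPKM or more. "Rose" and "fell" mean a change of 1 or more in log2(FPKM + 0.5), on which the change of a low gene comes out too small. Genes were tested when Xa plus Xi averaged 1 FPKM or more over their table, which all 6 members did in each table, among 270, 261, 247 and 277 genes in the WT, XRRb and XRRc, Rad21-degron and Ctcf-degron tables. Xist, the RNA that coats Xi, was listed at 15.5 FPKM on Xi in WT, 0 in XistpA, 1.18 in XRR KO and 7.86 in XRRa KO. It lay between 6.72 and 10.9 FPKM in the XRRb and XRRc lines, at 28.0 and 35.6 FPKM in Rad21-degron cells with DMSO and dTAG, and at 18.6 and 18.7 FPKM in the Ctcf-degron cells. None of 14 marker genes fixed for extraembryonic endoderm, trophoblast and epiblast was a row of these X-linked tables, so the cell type was not checked here.

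The level on Xa followed much the same order in most groups. Cul4b was the highest of the 6 genes in all 12 groups, Huwe1 was next in 9 of 12, and Usp11 was the lowest in 10 of 12. The exceptions to the last were XistpA and Ctcf-degron cells with dTAG, where Rnf128 was the lowest. With 1 merged value per group, no spread shows which neighbours in this order differ. Allele-specific values may also depend on how many parental sequence differences a transcript holds, which was not given. Ranks between genes may therefore not follow their total expression.

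The ligase scaffold gene Cul4b stood at 25.1 FPKM on Xa in WT, 23.2 in XistpA, 23.5 in XRR KO and 30.2 in XRRa KO. It lay between 22.0 and 26.9 FPKM in the XRRb and XRRc lines. Its Xa level was above that of 69.2% to 76.3% of the tested genes of the same column. The HECT ligase gene Huwe1 stood at 10.1 FPKM on Xa in WT, 9.71 in XistpA, 13.5 in XRR KO and 10.2 in XRRa KO, and between 7.36 and 9.25 FPKM in the XRRb and XRRc lines. Both genes thus varied by no more than 1.39-fold between the highest and lowest columns of either of these tables.

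The RING ligase gene Rnf128 had the widest range of the 6 in the WT table, while in each of the other 3 tables its range was narrower than that of Usp11. In the WT table it stood at 3.34 FPKM on Xa in WT, 0.594 in XistpA, 3.39 in XRR KO and 3.20 in XRRa KO. There XistpA was 5.71-fold below XRR KO, and the other 3 columns were close together. In the XRRb and XRRc lines Rnf128 lay between 2.21 and 2.77 FPKM. It stood at 3.98 FPKM with DMSO and 7.83 with dTAG in Rad21-degron cells, and at 1.63 and 2.12 FPKM in Ctcf-degron cells.

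Of the deubiquitinase genes, Usp9x stood at 7.18 FPKM on Xa in WT, 7.31 in XistpA, 14.8 in XRR KO and 7.06 in XRRa KO, so that XRR KO alone stood apart. In the other lines it was 7.82 in XRRb XaKO, 6.37 in XRRb XiKO, 7.45 in XRRc XaKO and 7.52 in XRRc XiKO. Usp11 was listed low throughout, at 1.25 FPKM on Xa in WT, 1.61 in XistpA, 1.73 in XRR KO and 1.59 in XRRa KO. Its Xa level exceeded that of 2.30% to 24.3% of tested genes of the same column. Otud5 stood at 4.42 FPKM on Xa in WT, 4.89 in XistpA, 5.28 in XRR KO and 4.31 in XRRa KO. In the XRRb and XRRc lines Otud5 lay between 4.93 and 5.75 FPKM on Xa and Usp11 between 1.15 and 1.59.

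**Figure D1:**
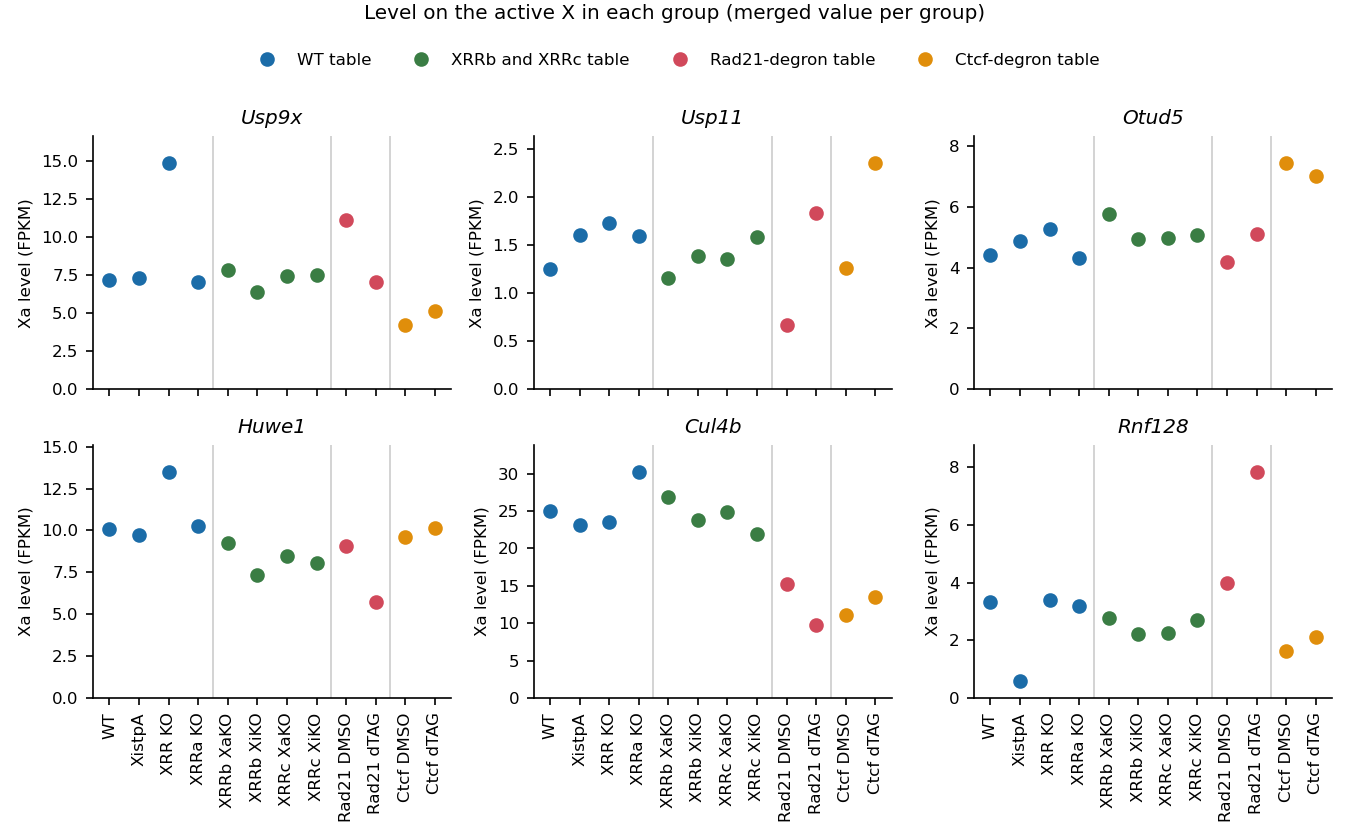
Level on Xa (FPKM, vertical axis from 0, with its own range for each gene) in the 12 groups (horizontal axis). Each point is 1 merged value, colours mark the table, and levels are comparable only within a colour. Usp9x in XRR KO at 14.8 FPKM and Rnf128 in XistpA at 0.594 FPKM stand apart from the other columns of their table.

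The promoters of 3 members are shown, those of Rnf128, Usp11 and Cul4b. Rnf128 and Usp11 each passed the size rule on Xa in a comparison below, and Cul4b had the highest level. Usp9x also passed the rule, but no promoter of Usp9x was matched. Each sequence is the 250 bases before the RefSeq start on build GRCm38.p6, another build than the authors', written 5′ to 3′ on the gene's strand. Capitals mark 4 short motifs found on either strand: the CCAAT box (CCAAT), the YY1 core (AAGATGG), the ETS core (CCGGAAG) and the NRF1 core (GCATGCG). No marked motifs overlap.
Rnf128, chrX:139610370-139610619, plus strand: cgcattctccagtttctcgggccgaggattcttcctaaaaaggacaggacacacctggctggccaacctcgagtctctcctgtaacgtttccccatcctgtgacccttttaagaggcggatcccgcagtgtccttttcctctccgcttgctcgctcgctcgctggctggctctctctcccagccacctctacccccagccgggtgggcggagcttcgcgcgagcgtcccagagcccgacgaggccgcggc
Usp11, chrX:20703659-20703908, plus strand: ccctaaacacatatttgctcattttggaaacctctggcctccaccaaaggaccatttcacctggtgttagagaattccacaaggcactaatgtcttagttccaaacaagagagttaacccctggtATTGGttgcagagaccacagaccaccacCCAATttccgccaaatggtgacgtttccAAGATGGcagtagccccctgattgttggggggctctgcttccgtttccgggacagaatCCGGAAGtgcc
Cul4b, chrX:38576197-38576446, minus strand: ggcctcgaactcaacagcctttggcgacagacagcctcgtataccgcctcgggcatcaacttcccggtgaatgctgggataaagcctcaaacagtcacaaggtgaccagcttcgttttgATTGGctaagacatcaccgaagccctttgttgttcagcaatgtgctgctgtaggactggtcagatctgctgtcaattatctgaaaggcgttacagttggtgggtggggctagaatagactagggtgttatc
The Rnf128 window held 21 CpG dinucleotides and none of the motifs, and its CpG count exceeded that of 83.7% of 32851 RefSeq promoter windows of the same length. The Usp11 window held 5 CpGs, 2 CCAAT boxes, 1 YY1 core and 1 ETS core. The Cul4b window held 9 CpGs and 1 CCAAT box. Over all windows the median CpG count was 6, a CCAAT box was present in 33.8%, a YY1 core in 4.49%, an ETS core in 6.91% and an NRF1 core in 3.02%. The Huwe1 window held 23 CpGs and none of the motifs, and the 2 Otud5 windows held 22 and 26 CpGs, 2 and 1 CCAAT boxes, and 1 and 0 NRF1 cores. A TATAAA sequence was found in none of these 6 windows and in 12.4% of all windows. Promoters of 5 of the 6 members were matched. The match of letters is a description of the sequence only.

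On Xi, 19 of 72 values of the 6 genes (6 genes in 12 groups) were above 0. Of all tested genes, 19.8% (Rad21-degron cells with DMSO) to 54.4% (XRR KO) were above 0 in a group. Usp9x accounted for 10 of the 19 member values, Cul4b for 4, Huwe1 and Otud5 for 2 each and Rnf128 for 1. Usp11 had no Xi value above 0 in any of the 12 groups, and how many tested genes shared this was not counted. In WT, Usp9x was the only member above 0, at 0.0172 FPKM, a share of 0.239%. That is 1 of 6 members against 34.1% of the 270 tested genes. None of the 6 had a share of 10% or more in any group, against 12.4% of genes with a share in WT and 21.7% in XRR KO. The highest share of a member outside XRR KO was 1.16%, for Usp9x in Rad21-degron cells with dTAG.

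In XRR KO, 5 of the 6 genes were above 0 on Xi, against 54.4% of tested genes. Rnf128 stood at 0.372 FPKM (9.90%), Usp9x at 0.327 FPKM (2.16%) and Otud5 at 0.134 FPKM (2.48%). Cul4b at 0.0442 FPKM (0.188%) and Huwe1 at 0.00899 FPKM (0.0666%) were lower, and Usp11 was listed at 0. In XistpA, where Xist was listed at 0, 2 of the 6 were above 0 on Xi against 52.6% of tested genes. They were Usp9x at 0.0718 FPKM (0.972%) and Cul4b at 0.0105 FPKM (0.0454%). Rnf128 had too low a total in XistpA to give a share. In XRRa KO 2 of 6 were above 0, against 41.5% of tested genes, with Usp9x at 0.0741 FPKM (1.04%) and Otud5 at 0.0414 FPKM (0.952%). Summed over the 6 genes, Xi made up 0.0334% of the members' FPKM in WT, 0.174% in XistpA, 1.41% in XRR KO and 0.204% in XRRa KO.

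**Figure D2:**
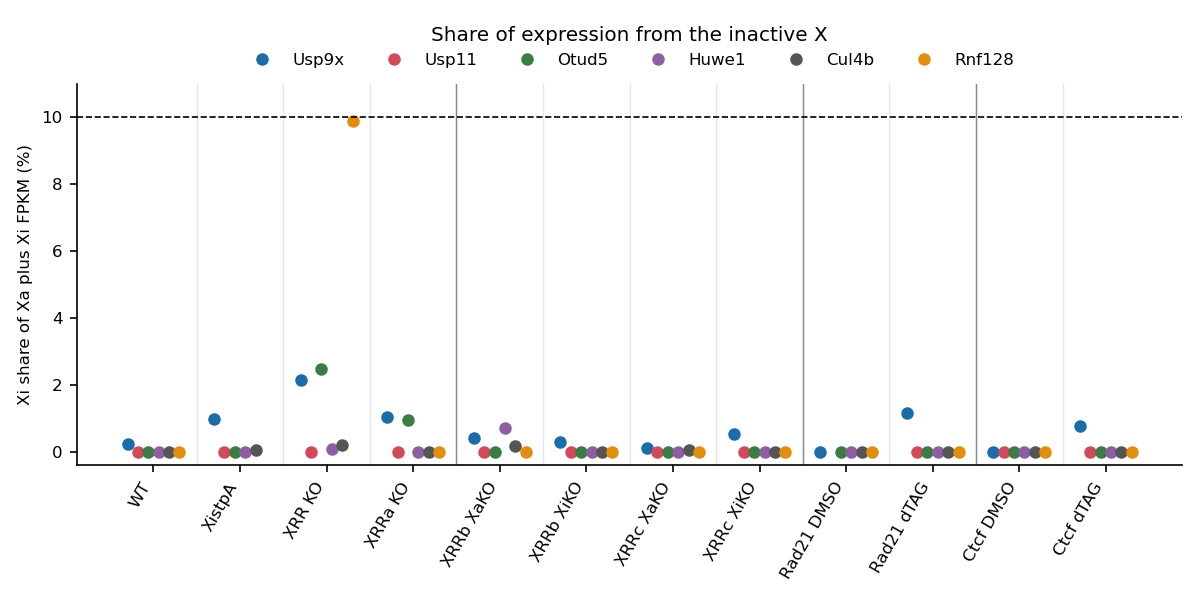
Xi share of Xa plus Xi FPKM (percent, vertical axis) of each gene in the 12 groups (horizontal axis), 1 merged value per point, with the dashed line at 10%. Points are left out where Xa plus Xi was under 1 FPKM (Rnf128 in XistpA and Usp11 in Rad21-degron cells with DMSO). Only Rnf128, Otud5 and Usp9x in XRR KO lie above 2%, at 9.90%, 2.48% and 2.16%.

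The 4 remaining lines and the degron cells held low values on Xi. In XRRb XaKO, Usp9x (0.0327 FPKM), Huwe1 (0.0658) and Cul4b (0.0438) were above 0, which is 3 of 6 against 35.6% of tested genes. In XRRb XiKO only Usp9x was (0.0179 FPKM, against 35.6%). In XRRc XaKO Usp9x stood at 0.00857 FPKM and Cul4b at 0.0144 (2 of 6, against 32.6%), and in XRRc XiKO only Usp9x was above 0, at 0.0409 FPKM (against 33.7%). With DMSO none of the 6 was above 0 in either degron line, against 19.8% of tested genes in Rad21-degron and 22.7% in Ctcf-degron cells. With dTAG only Usp9x was, at 0.0822 FPKM in Rad21-degron cells (against 22.3%) and 0.0394 FPKM in Ctcf-degron cells (a share of 0.764%, against 24.2%). These Xi values are small enough that a listed 0 and a value such as 0.0172 FPKM may not differ. They may rest on very few fragments. The Usp9x value of 0.0172 FPKM in WT, for example, stands to its Xa plus Xi total in a whole-number ratio that very few Xi fragments could give. Fragment counts were not given, and this was not tested.

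In the gene order of RefSeq on GRCm38.p6, the members lie apart from each other. Otud5, Usp9x, Usp11 and Cul4b lie on the centromeric side of Xist, 163, 142, 132 and 116 tested genes away, and Rnf128 and Huwe1 lie on the other side, 49 and 71 tested genes away. Usp9x is the only member with a direct tested neighbour whose Xi share was 10% or more in WT. This is Ddx3x, an RNA helicase gene known to escape X inactivation, whose share was 35.6% in WT, 53.0% in XistpA, 47.1% in XRR KO and 45.9% in XRRa KO, against 0.239%, 0.972%, 2.16% and 1.04% for Usp9x. Across all 12 groups the Ddx3x share lay between 27.3% and 53.0%. Med14, a Mediator subunit gene on the other side of Usp9x, had shares of 0.375% in WT and 0.697% in XRR KO.

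The neighbours of the other members were at or near 0 on Xi in WT, where Gripap1 beside Otud5 had the highest share, 2.27%. Lamp2, a lysosomal membrane gene next to Cul4b, went from a listed 0 in WT to 1.53 FPKM on Xi in XistpA (3.59%) and 5.70 FPKM in XRR KO (13.5%), while Cul4b stayed at 0.188% or less. Mcts1, on the other side of Cul4b, was listed at 0 on Xi in WT and XRR KO. Beside Rnf128, Trap1a stood at 1.34 FPKM on Xi in XRR KO (1.80%) and Morc4 was listed at 0. Beside Otud5, Gripap1 had shares of 2.68% in XRR KO, 14.1% in XRRc XiKO and 33.3% in Rad21-degron cells with dTAG. Otud5 was at 0 on Xi in XRRc XiKO and in those dTAG cells. The 33.3% came from 0.376 FPKM on Xi and 0.752 on Xa, a total near the limit for giving a share. Very few fragments may lie behind it, so it carries no contrast with Otud5. Pim2, on its other side, had no Xi value above 0 in any of the 12 groups. Cdk16 and Timp1 beside Usp11, and Phf8 beside Huwe1, were listed at 0 on Xi in WT and XRR KO. Hsd17b10, also beside Huwe1, was at 0.212 FPKM on Xi in WT (0.317%) and 0 in XRR KO.

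**Figure D3:**
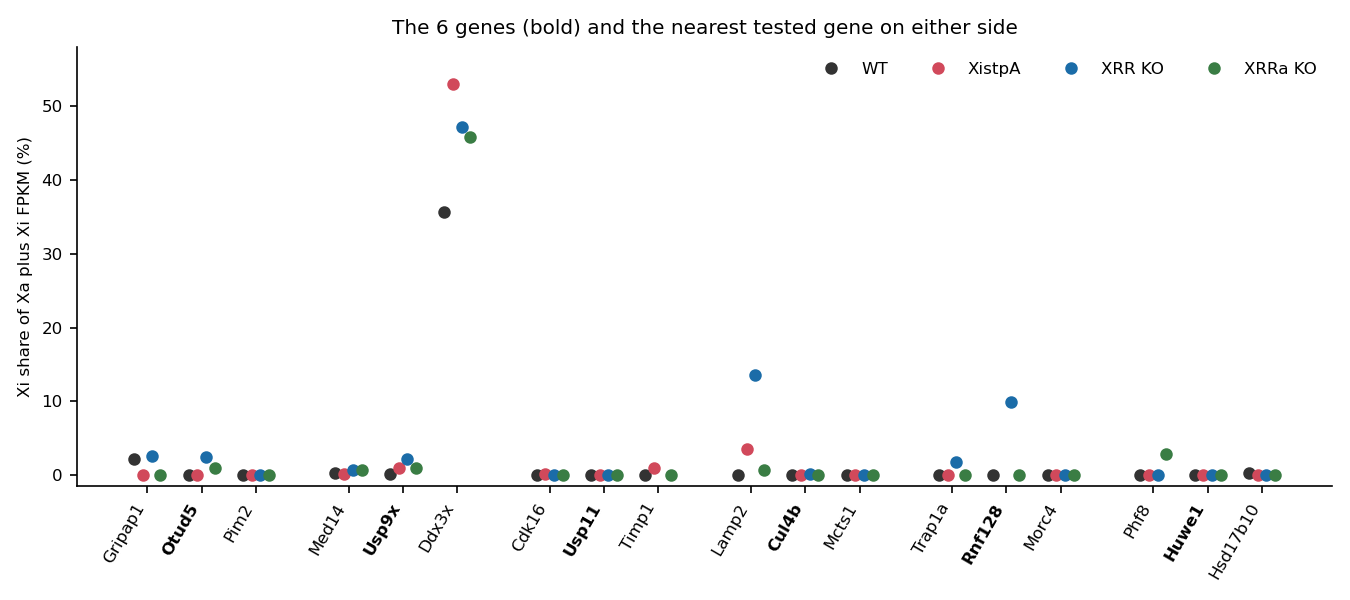
Xi share of Xa plus Xi FPKM (percent, vertical axis) of the 6 genes (bold) and of the nearest tested gene on either side (horizontal axis, in the order along the chromosome) in WT, XistpA, XRR KO and XRRa KO, 1 merged value per point, none where Xa plus Xi was under 1 FPKM. Ddx3x lies between 35.6% and 53.0% beside Usp9x at 2.16% or less, and Lamp2 in XRR KO at 13.5% beside Cul4b at 0.188%.

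XistpA was set against WT to see how the 6 genes stood where Xist was listed at 0 on Xi. Rnf128 fell on Xa, from 3.34 to 0.594 FPKM (log2 change -1.81), and none of the other 5 passed the size rule on either allele. On Xa 3.33% of the 270 tested genes fell and 1.11% rose. The other Xa changes ran from -0.11 for Cul4b to 0.27 for Usp11, around a median of -0.02 over all tested genes. On Xi 0 of 6 members rose or fell, against 12.2% of tested genes that rose and 1.48% that fell, and the largest member change was 0.14, for Usp9x, from 0.0172 to 0.0718 FPKM.

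In XRR KO against WT no member passed the size rule, but Usp9x missed it narrowly on Xa. Its level was 2.07-fold higher, 14.8 against 7.18 FPKM, a log2 change of 0.998. The change became 1.04 with a pseudocount of 0.1, 1.15 with columns scaled to equal median Xa FPKM and 1.18 when centred on the median Xa change, all past the rule, and 0.95 with a pseudocount of 1. On Xa 1.11% of tested genes rose and 3.70% fell, at a median change of -0.19. The split was 3 risen and 10 fallen genes, 6 and 7 once the columns were scaled, and 7 and 4 once centred. The Xa levels of Huwe1, Usp11 and Otud5 were also higher than in WT (0.40, 0.35 and 0.23), Rnf128 was level (0.02), and Cul4b was slightly lower (-0.09, but 0.06 and 0.09 under the scaled and centred settings).

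Transcript length moved with the Xa changes in XRR KO. This was examined after the values were seen. A length was found for 269 of 270 genes. Among the 68 genes with the longest transcripts the median Xa change was 0.19, and among the 68 with the shortest it was -0.63. Usp9x and Huwe1, with longest annotated transcripts of 11887 and 14579 bases, are in the long group, whose shortest member has 4868 bases. In XRRa KO against WT the same medians were 0.04 and -0.03. The part of length in the Usp9x difference was not tested.

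**Figure D4:**
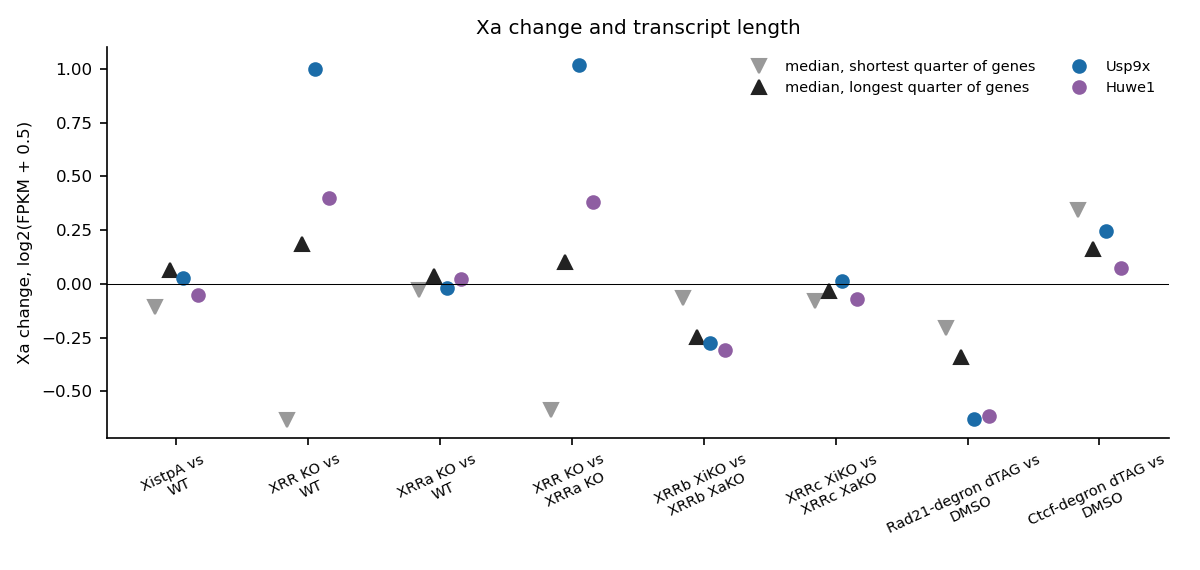
Change on Xa in log2(FPKM + 0.5) (vertical axis) in the 8 comparisons (horizontal axis, first group minus second) for the genes with the longest and the shortest transcripts (medians) and for Usp9x and Huwe1. In XRR KO against WT the medians are 0.19 and -0.63, Usp9x is at 0.998 and Huwe1 at 0.40.

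On Xi in XRR KO 0 of 6 members rose or fell, against 15.9% of tested genes that rose and 1.11% that fell. Rnf128 changed by 0.80 on Xi, Usp9x by 0.68 and Otud5 by 0.34. With a pseudocount of 0.1 these became 2.24, 1.87 and 1.23, all past the size rule, a setting under which 69 of 270 tested genes rose on Xi in place of 43. Of the 5 members listed at 0 on Xi in WT, 4 were above 0 in XRR KO, against 39.3% of 178 such genes. The corresponding counts were 1 of 5 in XistpA (34.3%) and 1 of 5 in XRRa KO (23.0%).

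XRRa KO against WT showed little. No member passed the size rule on either allele, where 5.93% of tested genes rose and 1.11% fell on Xi, and 0.370% rose and 0.370% fell on Xa. Xa changes ran from -0.05 for Rnf128 to 0.26 for Cul4b and Usp11. XRR KO and XRRa KO were also compared directly. Usp9x rose on Xa, 14.8 against 7.06 FPKM (log2 change 1.02), where 1.48% of tested genes rose and 4.07% fell, and with a pseudocount of 1 the change was 0.97. The split was 4 risen and 11 fallen genes, 8 and 7 once the columns were scaled, and 10 and 6 once centred. In this comparison the 68 genes with the longest transcripts had a median Xa change of 0.10 and the 68 with the shortest -0.59, and the part of length was not tested. On Xi 0 of 6 members rose or fell, against 12.6% of tested genes that rose and 1.85% that fell. Of the 4 members listed at 0 on Xi in XRRa KO, 3 were above 0 in XRR KO, against 34.8% of 158 such genes. The largest Xi difference was that of Rnf128, 0.372 FPKM against a listed 0, a change of 0.80 that became 2.24 with a pseudocount of 0.1, where 53 of 270 tested genes rose in place of 34.

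In the XRRb and XRRc lines XiKO was set against XaKO. No member passed the size rule on either allele in either line. In XRRb, 1.92% of tested genes rose and 0 fell on Xi, and 0.766% rose and 2.30% fell on Xa. Of the members, 5 were lower on Xa in XiKO, by -0.17 for Cul4b to -0.31 for Huwe1, and Usp11 was higher by 0.19. The median Xa change over all tested genes was -0.09. In XRRc, 0.766% rose and 1.53% fell on Xi, and 1.15% rose and 1.15% fell on Xa. Member changes on Xa ran from -0.17 for Cul4b to 0.23 for Rnf128. None of the members listed at 0 on Xi in XaKO was above 0 in XiKO (0 of 3 in XRRb, against 12.5% of 168 genes, and 0 of 4 in XRRc, against 15.3% of 176).

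In Rad21-degron cells dTAG was set against DMSO. On Xa Usp11 rose, from 0.665 to 1.83 FPKM (log2 change 1.00, 0.77 with a pseudocount of 1). It was under 1 FPKM with DMSO and passed the filter through the dTAG value alone, so that this call is not independent of the filter. Rnf128 went from 3.98 to 7.83 FPKM, a change of 0.90 that missed the size rule. It was 1.27 with columns scaled to equal median Xa FPKM and 1.15 when centred. Cul4b went from 15.3 to 9.73 FPKM, Huwe1 from 9.07 to 5.74 FPKM and Usp9x from 11.1 to 7.03 FPKM, changes of -0.62, -0.62 and -0.63. The median Xa change was -0.26, with 6.48% of tested genes risen and 15.0% fallen. The split was 16 risen and 37 fallen genes, 26 and 19 once the columns were scaled, and 22 and 26 once centred. Cul4b, Huwe1 and Usp9x then stood at -0.22, -0.23 and -0.24 when scaled and at -0.37, -0.36 and -0.37 when centred. Otud5 went from 4.19 to 5.11 FPKM (0.26). On Xi 0 of 6 rose or fell, against 4.05% of tested genes that rose and 3.24% that fell. That split of 10 and 8 genes was 14 and 5 once the columns were scaled and 17 and 4 once centred. Of the 6 members listed at 0 on Xi with DMSO 1 was above 0 with dTAG, against 9.60% of 198 such genes.

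In Ctcf-degron cells no member passed the size rule with dTAG. On Xa 5.42% of tested genes rose and 0.722% fell, and the median change was 0.23. Usp11 went from 1.26 to 2.35 FPKM (0.70, and 0.49 with columns scaled). Rnf128 went from 1.63 to 2.12 FPKM, Cul4b from 11.1 to 13.4 and Usp9x from 4.24 to 5.13, changes of 0.30, 0.27 and 0.25 that lie near that median. Huwe1 went from 9.62 to 10.1 FPKM (0.07, but -0.18 scaled and -0.16 centred), and Otud5 from 7.43 to 7.01 (-0.08). Usp11 was listed higher with dTAG in both degron lines, in the Rad21 line with the limit of the filter given above. Rnf128 was also listed higher with dTAG in both. In each comparison without a degron, Usp11 was likewise higher on Xa in the first group, by 0.09 to 0.35. Whether the change of Usp11 differed between the degron lines was not tested. On Xi 0 of 6 rose or fell, against 0.361% of tested genes that rose and 0.361% that fell, which is 1 gene each way (0 and 1 once centred). Of the 6 members listed at 0 on Xi with DMSO 1 was above 0 with dTAG, against 7.48% of 214 such genes.

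**Figure D5:**
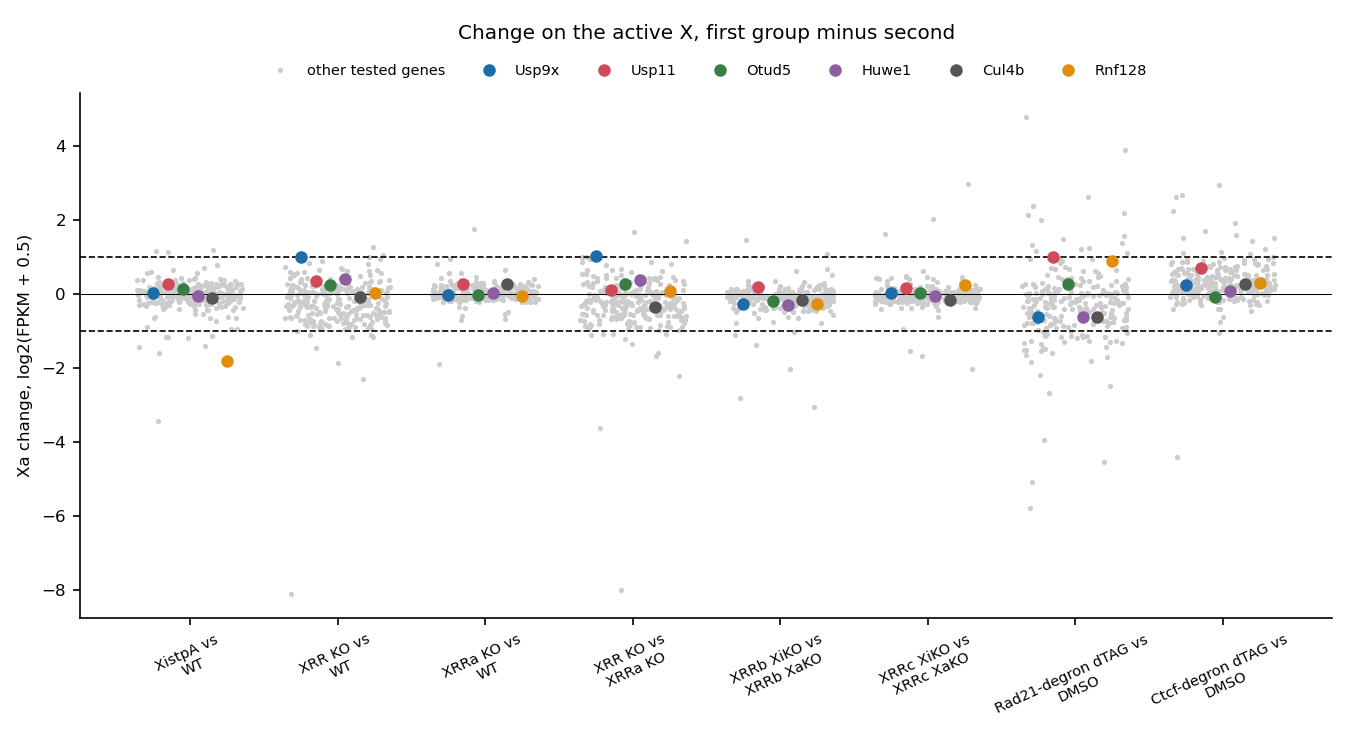
Change on Xa in log2(FPKM + 0.5) (vertical axis) in the 8 comparisons (horizontal axis, first group minus second), with the 6 genes in colour, the other tested genes in grey and dashed lines at the size rule of 1. Rnf128 in XistpA (-1.81), Usp9x in XRR KO against XRRa KO (1.02) and Usp11 in Rad21-degron cells (1.00) are past the lines, and the spread of the grey points is wide in Rad21-degron cells.

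The wider X-linked ubiquitin list held 31 further genes, of which 14, 14, 13 and 16 were tested in the WT, XRRb and XRRc, Rad21-degron and Ctcf-degron tables. In WT none of the 14 had an Xi share of 10% or more, against 12.4% of all genes with a share. The highest was 0.957%, for Brwd3, which encodes a bromodomain and WD-repeat protein. In XistpA 0 of 14 rose on Xi, against 12.2% of all tested genes, and 1 fell on Xa, against 3.33%. It was Dcaf12l1, named as a relative of a cullin-associated factor, from 3.31 to 1.19 FPKM (-1.17). In XRR KO 1 of 14 rose on Xi, against 15.9% of all tested genes, the RING ligase gene Pja1, from a listed 0 to 0.510 FPKM (1.01, a share of 3.45%), and no gene passed the rule on Xa, where 1.11% of tested genes rose and 3.70% fell. Rlim, the RING ligase gene known as an activator of Xist, went from 14.0 to 27.3 FPKM on Xa in XRR KO (0.94), Brwd3 from 2.87 to 5.50 (0.83) and Xiap, an inhibitor of apoptosis, from 6.40 to 11.5 (0.80). Rlim passed the rule with columns scaled (1.10) and centred (1.13), and Brwd3 once centred (1.02). Ube2a, a conjugating enzyme gene, went from 43.0 to 27.9 FPKM (-0.61) and the deubiquitinase gene Brcc3 from 27.8 to 15.8 (-0.80). In XRRa KO no gene of the list passed the rule on either allele, against 5.93% of tested genes that rose on Xi. Directly between XRR KO and XRRa KO, Pja1 was the 1 gene that passed it, on Xi (1.01, against 12.6% of tested genes that rose). Under both scalings Rlim (1.07 and 1.11), Xiap (1.14 and 1.19) and Brwd3 (1.03 and 1.09) also passed it there, on Xa.

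In XRRb 1 of 14 fell on Xa, against 2.30% of tested genes. It was Dcaf12l1, from 4.60 to 2.00 FPKM (-1.03, but -0.90 scaled and -0.94 centred). In XRRc 0 of 14 passed the rule, against 1.15% that rose and 1.15% that fell on Xa. In Rad21-degron cells 3 of 13 fell on Xa with dTAG, against 15.0% of tested genes, or 19 of 247 once the columns were scaled. Pja1 went from 13.2 to 3.86 FPKM (-1.65, -1.27 scaled) and Brcc3 from 12.3 to 5.23 (-1.16, but -0.77 scaled and -0.90 centred). Usp51, another deubiquitinase gene, was listed at 0 against 2.29 FPKM and passed the filter through its DMSO value alone, so its place in the count follows from the filter. With columns scaled Maged2 passed the rule upwards (1.05). Pja1 also rose on Xi in that comparison, where 4.05% of tested genes rose, from a listed 0 to 2.32 FPKM (2.49), a share of 37.5%. Its values of 2.32 on Xi and 3.86 on Xa stand in a simple ratio that very few fragments could give. Fragment counts were not given, so how firm the Pja1 share is was not tested. The Pja1 share was the 1 share of 10% or more in the list over all 12 groups, where 11.8% to 21.7% of all genes with a share reached 10%. In Ctcf-degron cells 1 of 16 was past the rule on Xa, against 5.42% of tested genes that rose. It was Mageh1, a gene of the MAGE family of ligase partners, listed at 0 with DMSO and 2.70 FPKM with dTAG. It passed the filter through the dTAG value alone, so this call follows from the filter. A listed 0 can be a failed estimate.

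The genes whose Xa pattern was most like that of each member were found by Pearson's r of log2(Xa + 0.5), centred within each table, over the 12 groups and among 232 other genes tested in all tables. The points share columns and their scaling, so the values are a description. Usp9x was most like Amer1 (0.97) and Rlim (0.96), Huwe1 like Smarca1 (0.97) and Pola1 (0.95), and Cul4b like Ngfrap1 (0.90) and Ddx3x (0.89). Rnf128 was most like Zfp711 (0.84) and Lonrf3 (0.78), Usp11 like Sh3bgrl (0.85) and Kdm6a (0.82), and Otud5 like Kdm6a (0.81) and Xiap (0.79). Among the members themselves the highest value was that of Usp9x with Huwe1 (0.89), the pair with the longest transcripts, and the lowest was that of Otud5 with Cul4b (-0.59).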

How the data were processed

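Libraries of 32 samples in 12 groups were made by Smart-seq2 per the labels' protocols, a method that starts from polyadenylated RNA and does not mark strand. Build mm9 and the tools StringTie 2.1.1, HISAT2 2.2.0 and Trim Galore 0.6.4 come from the submitters' processing notes. The allele assignment is not given in the sources. The authors deposited allele-specific FPKM values in 4 tables with 24 columns, merged over the samples of a group per the file headers, so the planned limma test was not run. The Ctcf table's columns were matched by the file's name and the treatment. Over 68 pairs of columns, at most 3 genes below 1 FPKM shared a ratio (within 0.02%), so this search did not recover depth. Whole-number ratios of Xi to Xa plus Xi within a gene were not searched for, so the search does not bear on fragment counts per gene.

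Changes are differences of log2(FPKM + 0.5). The members and lists were chosen with earlier results of these data known. Named were the members, Xist, genes of the wider list past the size rule or with an Xi share of 10% or more in WT, tested neighbours and the 2 most alike genes. No member reached an Xi share of 10%, so none was matched by share. The wider-list genes Rlim, Brwd3, Xiap, Ube2a and, in XRR KO, Brcc3 were named after their values were seen. Ubl4a was taken as Ubl4. RefSeq placed 999 of 1006 genes. In GENCODE M21 no other gene in the tables overlapped an exon of a member. With minimap2 2.31, no member had a copy at 95% identity over 50% of its transcript. The closest was Usp9y, at 83.4% over 64.6% of Usp9x. Alternatives were pseudocounts of 0.1 and 1, no filter, a filter of 5 FPKM, 2 scalings (columns scaled to equal median Xa FPKM, or changes centred on the median Xa change), and share rules of 5% and 20%. Scripts ran under Python 3.11.15 with matplotlib 3.10.9, pandas 2.3.3 and numpy 2.4.6.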

Additional observations from a re-analysis of the deposited data

How the results depend on the processing

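No paired analysis was possible because the columns are merged over samples and carry no replicate numbers, and leaving out replicates was not run for the same reason. Of 120 counts of members recomputed, 107 stayed within 1.5 times and 13 moved, and no called change of a member reversed. Many of these counts could not have moved. All members passed the filter in each table, so leaving out the filter could not change a count. Most counts were 0 in the main setting. A pseudocount of 1, a filter of 5 FPKM and the higher share rule could not raise a count of 0. The number that stayed is therefore no measure of how firm the results are. In XRR KO against WT, a pseudocount of 0.1 gave 3 members past the rule on Xi (Usp9x, Otud5 and Rnf128) in place of 0, while 69 of 270 tested genes rose in place of 43, and Usp9x on Xa made 1 in place of 0 with that pseudocount, with scaled columns and with centred changes. In XRR KO against XRRa KO, Xi gave 2 in place of 0 with a pseudocount of 0.1 (Usp9x and Rnf128), while 53 of 270 tested genes rose in place of 34, and 1 with centred changes (Rnf128), and Xa gave 0 in place of 1 with a pseudocount of 1. In Rad21-degron cells Xa gave 0 in place of 1 with a pseudocount of 1 or a filter of 5 FPKM, which removes Usp11 and Otud5, and 2 (Usp11 and Rnf128) under both scalings. In XistpA the filter of 5 FPKM removes Rnf128 and left 0 on Xa. A share rule of 5% gave 1 member in XRR KO, Rnf128, in place of 0. In the wider list a pseudocount of 0.1 added Maged1 on Xi in XistpA and Klhl13 and Usp27x on Xa in Ctcf-degron cells, and a pseudocount of 1 removed Dcaf12l1 in XistpA and XRRb and Pja1 on Xi in XRR KO. Scaling was tried on that list after seeing the data. It added Rlim, Brwd3 and Xiap on Xa in comparisons of XRR KO and Maged2 in Rad21-degron cells, and removed Dcaf12l1 in XRRb and Brcc3 in Rad21-degron cells.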

Other observations

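Of the 31 genes of the wider ubiquitin list, 9 were listed at 0 on both alleles in all groups whose table lists them. They were Mid1, Mid2, Rnf113a1, Asb9, Asb11, Dcaf12l2, Ubl4, Ubqln2 and Psmd10. Ubqln2 encodes a ubiquitin shuttle protein and Psmd10 a proteasome assembly factor, and both are used by most cells, so a listed 0 cannot be read as absence of the transcript.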
